A study of Mus musculus with 6 samples.

Results

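The collagens and laminins are the main structural proteins of the extracellular matrix, and their transcripts were followed here in microglia taken from mice after acute ischemic stroke (AIS). Members were all genes on the array whose RefSeq symbol is Col with a chain number or Lama, Lamb or Lamc with a number, which gave 55 genes, 44 collagens and 11 laminins, of 23462 genes named on the array. They were measured by 88 probes. The study asked what overexpression of PGC-1α, a transcriptional coactivator of mitochondrial and oxidative genes, does in microglia after stroke. Microglia were selected magnetically by P2RY12, a surface receptor of resident microglia, and total RNA of each of 6 samples was put on 1 single-colour Agilent array. The 3 control samples came from PGC-1α f/f mice, in which the PGC-1α allele is flanked by loxP sites and eGFP is also carried. The 3 mPGC-1α samples came from littermates with the same allele and, in addition, tamoxifen-inducible Cre recombinase expressed from the Cx3cr1 locus (Cx3cr1-Cre mice), a locus that is also active in other myeloid cells. Both groups shared the f/f allele, the C57BL/6 background, AIS, an age of 10 weeks and a label of male sex. The paper describes tamoxifen treatment of both genotypes before stroke surgery, without naming the array samples. Neither the methods nor the labels give the time between stroke and isolation for these arrays. They also do not say whether a sample was 1 mouse or a pool. The p-values below therefore measure the spread between these samples, which may be partly technical.

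Collagens are trimers of α chains. Fibrillar collagens (types I, II, III, V, XI, XXIV and XXVII) form fibers, type IV forms the sheet-like network of basement membranes, type VI forms beaded filaments, and smaller families decorate fibers or span the cell membrane. Laminins are trimers of an α, a β and a γ chain and are the other main polymer of basement membranes. In the brain, matrix of this kind surrounds vessels and lines the meninges and choroid plexus, and it is made mostly by endothelial cells, pericytes, smooth muscle cells, fibroblasts, epithelium and astrocytes rather than by microglia.

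RefSeq promoter windows of assembly GRCm38.p6, running from 250 bases before to 50 bases after a transcription start, matched 40 of the 55 members, with 44 windows. The windows of Col4a1 and Col4a2 are shown because both chains enter the same type IV trimer and their genes lie head to head, and because their probes gave unequal group differences. The Col4a1 window is chr8:11312777-11313076 on the minus strand and the Col4a2 window is chr8:11312555-11312854 on the plus strand, and capitals mark the 78 bases, chr8:11312777-11312854, that both windows contain.
Col4a1: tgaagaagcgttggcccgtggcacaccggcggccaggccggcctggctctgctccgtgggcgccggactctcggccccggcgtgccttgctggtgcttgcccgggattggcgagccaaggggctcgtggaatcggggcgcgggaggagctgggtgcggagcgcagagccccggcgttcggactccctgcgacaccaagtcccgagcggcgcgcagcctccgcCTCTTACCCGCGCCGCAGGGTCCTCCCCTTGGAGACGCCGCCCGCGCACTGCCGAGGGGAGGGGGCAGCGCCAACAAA
Col4a2: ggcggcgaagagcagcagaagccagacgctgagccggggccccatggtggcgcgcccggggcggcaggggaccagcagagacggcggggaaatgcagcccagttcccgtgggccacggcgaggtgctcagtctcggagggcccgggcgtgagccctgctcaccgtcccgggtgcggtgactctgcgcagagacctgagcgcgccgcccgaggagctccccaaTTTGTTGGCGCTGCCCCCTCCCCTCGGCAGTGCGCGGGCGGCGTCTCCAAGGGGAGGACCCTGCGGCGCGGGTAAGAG
The Col17a1 window, chr19:47691993-47692292 on the minus strand, is shown because Col17a1 was one of the lowest collagens in mPGC-1α microglia relative to control and its promoter is of another kind. Capitals mark matches to TATAAA and to CCAAT on either strand.
Col17a1: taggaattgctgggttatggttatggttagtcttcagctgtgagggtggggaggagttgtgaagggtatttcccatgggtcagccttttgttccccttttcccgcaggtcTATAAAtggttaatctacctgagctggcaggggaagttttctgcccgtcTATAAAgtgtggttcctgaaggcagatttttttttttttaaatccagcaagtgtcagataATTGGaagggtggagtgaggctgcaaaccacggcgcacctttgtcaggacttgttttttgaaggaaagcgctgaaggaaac
The Col4a1 and Col4a2 windows held 74% and 73.7% G and C bases, against 46.3% in the Col17a1 window and a median of 52.7% over 32851 windows. GGGCGG, searched on both strands, was found 1 time in the Col4a1 window and 3 times in the Col4a2 window, 1 of them within the shared bases. It stood in 26 of the 44 member windows (59.1%) and in 35.7% of all windows. CCAAT was found in 31.8% of the member windows and 37.4% of all windows, and TATAAA in 11.4% and 13.6%. The Col17a1 window held 2 TATAAA matches, 1 CCAAT match and no GGGCGG. The Col4a1 and Col4a2 windows also held 1 CCAAT match each, which capitals do not mark there, and no TATAAA. These matches describe letters in a window only.

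All levels below are log2 of the processed spot intensity minus the 75th percentile of that array, so 0 is the 75th percentile, and they are given for arrays 1, 2 and 3 of each group in that order. Levels of different probes cannot be set against each other on an array. The targeted gene, Ppargc1a, was at -1.44, -0.94 and -0.93 in control and -1.49, -1.27 and -1.54 in mPGC-1α samples, so it was not higher in the samples labelled as overexpressing it (difference -0.33, SE 0.24, limma adjusted p = 0.817). Whether its probe reads the transgene is not given in the sources used here. All 10 microglia markers examined were well above background wherever they were measured. Of the 8 tested, 4 had a higher and 4 a lower mean in mPGC-1α samples (median difference 0.06), where 61.7% of all genes had a higher one. Of 5 with a value on every array, 2 lay above and 1 below without overlap, where 7.34% and 3.87% of all such genes did. Cx3cr1, whose locus carries the Cre, was lower in mPGC-1α samples by -1.25 with no overlap (adjusted p = 0.669). Control array 2 stood apart from the other 5 arrays in its sex-linked transcripts: Xist was at -5.21 there and between -0.97 and -0.51 elsewhere, and Eif2s3y was at -1.19 there and at -6.40 or lower elsewhere. All 6 samples are labelled male, so 5 of 6 arrays went against that label. Results are therefore also given without control array 2. Between 71.0% and 86.5% of spots were well above background, no spot was saturated, and the number of arrays limits the precision.

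No collagen or laminin differed between mPGC-1α and control microglia at an adjusted p below 0.05. The probes of most members differed by less than the spread between arrays, with a lower value in mPGC-1α samples for Col9a3, a chain of the type IX collagen that coats thin fibers. Of 8 tested laminins, 6 had a slightly higher mean, where 61.7% of all genes did. Second probes of Lama2 and Lamc1 went the other way. Of the 55 members, 44 had a probe bright enough to test (36 collagens and 8 laminins), and 39 were well above background on all 6 arrays. Among the tested genes, Col4a4, Col6a4 and Lama1 passed the brightness filter through only 1 of the groups, and Col1a2 and Lamb2 lacked a value on mPGC-1α array 3. The limma fit across all 40745 tested probes called 0% of 18222 genes at an adjusted p below 0.05, and the lowest adjusted p of a member was 0.669. At an unadjusted p below 0.05, 1 member was higher (Lamb2), where 2.97% of all genes were higher, and 2 members were lower (Col9a3 and Col17a1), where again 2.97% of all genes were lower and 5.94% passed in either direction. Blocked on the replicate number, these counts were 3 higher (Lamb3, Lama2 and Lamc1), where 4.55% of all genes were, and 3 lower (Col9a3, Col17a1 and Col8a2), where 5.39% were. The standard errors of the members ran from 0.21 to 0.56 with a median of 0.29, and the 95% intervals reached a median of 0.66 to either side. Differences smaller than that were mostly not detectable at an unadjusted p below 0.05 with 3 arrays a group. Larger ones also failed the adjusted threshold, such as Col9a3 at -1.40 (limma adjusted p = 0.669).

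**Figure D1:**
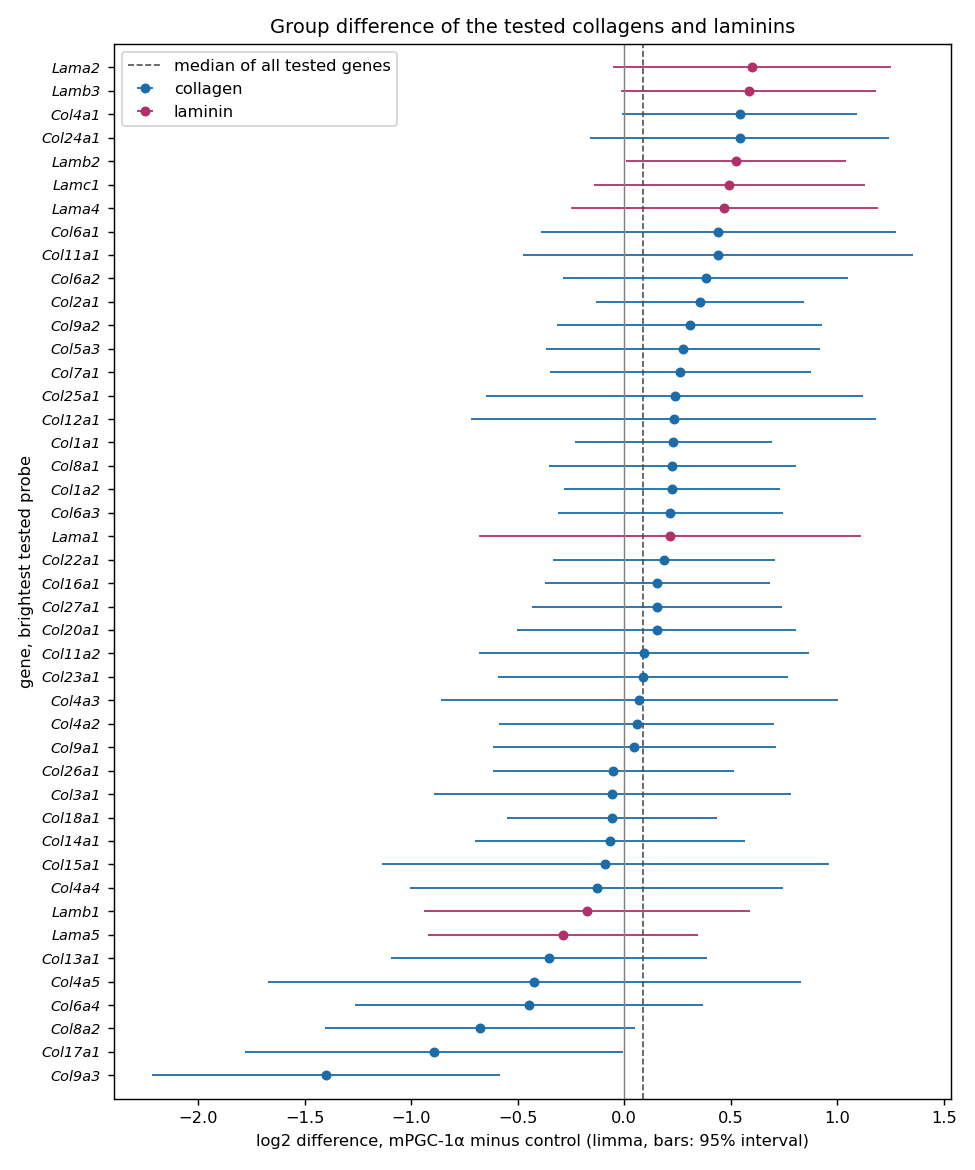
Log2 difference, mPGC-1α minus control, of the brightest tested probe of each of the 44 tested collagens (blue) and laminins (pink), with 95% intervals from limma and a dashed line at the median of all tested genes (0.09). Most intervals cross 0; Col9a3 lies lowest at -1.40, and most laminins lie on the right.

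In direction, 30 of the 44 tested members had a higher mean in mPGC-1α samples (68.2%, against 61.7% of all genes), and 14 had a lower one. With another scaling, in which the 75th percentile was taken after outlier-marked spots were left out, the share was 35 of 44 (79.5%, against 70.8% of all genes). The median difference was 0.17 over the members, 0.15 over the collagens and 0.48 over the laminins, against 0.09 over all genes. The laminin median was 0.23 with the mean of all tested probes of a gene, and the collagen median was 0.02 without control array 1. Of 42 members with a value on every array, 2 had all mPGC-1α arrays above all control arrays (Col4a1 and Lamb3), where 7.34% of all such genes did, and 1 had them below (Col9a3), where 3.87% did. Because each array measured the pooled RNA of all selected cells, fewer cells of a type and less RNA per cell cannot be told apart.

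The arrays themselves shifted together, with the same signs over all genes as within each family. Relative to the mean of the 6 arrays, the median of all genes was at -0.19, 0.17 and -0.11 on the control arrays. On the mPGC-1α arrays it was at 0.05, 0.08 and -0.02. The median collagen was at -0.28, 0.33 and -0.17 on the control arrays and at 0.19, 0.09 and -0.12 on the mPGC-1α arrays. The median laminin was at -0.41, 0.29 and -0.47 on the control arrays and at 0.24, 0.39 and -0.06 on the mPGC-1α arrays. Control array 2 was thus the highest array for the median collagen and lay near mPGC-1α array 1 for the median laminin, and the median of all genes was also highest there, at 0.17. Without control array 2, 12 of the 44 members (27.3%) were higher at an unadjusted p below 0.05, where 12.4% of all genes were, and the laminin median was 0.71 and the collagen median 0.34, against 0.20 over all genes. In that fit 607 of 17825 genes (3.41%) passed an adjusted p below 0.05, and Col9a3 was the single member among them. The 12 genes were Lamb3, Lamb2, Lamc1, Lama4, Lama2, Col4a1, Col6a2, Col1a1, Col2a1, Col9a2, Col11a1 and Col24a1.

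**Figure D2:**
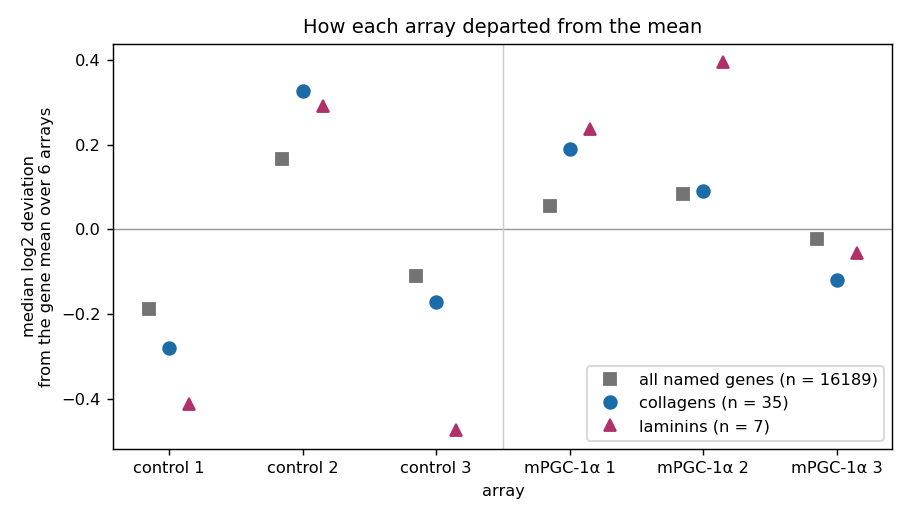
Median log2 deviation from the 6-array mean, for all named genes (grey squares), collagens (blue circles) and laminins (pink triangles) with a value on every array, by array. The collagens and laminins lie lowest on control arrays 1 and 3 and high on control array 2 (0.33 and 0.29), as do all named genes (0.17).

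Of the 8 tested laminin chains, 6 had a higher mean in mPGC-1α samples, where 61.7% of all genes did, and 1 was higher at an unadjusted p below 0.05, where 2.97% of all genes were. Lamb2, the β2 chain of vascular and synaptic basement membranes, was at 1.33, 1.73 and 1.37 in control and at 1.99 and 2.01 on mPGC-1α arrays 1 and 2. Its spots on array 3 were marked as outliers. Both measured mPGC-1α arrays lay above every control array, with a difference of 0.53 (SE 0.23, unadjusted p = 0.047, adjusted p = 0.696). With the outlier-marked spots kept, the difference was 0.41 and no laminin passed the unadjusted threshold. Lamb3, the β3 chain of an epithelial laminin, was at -0.58, 0.40 and -0.18 in control and at 0.41, 0.57 and 0.42 in mPGC-1α samples. The groups were separated only by the 0.01 between control array 2 and mPGC-1α array 1, and the difference was 0.58 (SE 0.27, unadjusted p = 0.055). Lamb1, the widely used β1 chain, went the other way, with 0.04, 0.68 and 0.80 in control and -0.39, 0.74 and 0.65 in mPGC-1α samples. Its low mean rested on mPGC-1α array 1, and the difference of -0.17 turned to 0.19 without that array; of its other tested probes, 1 was at -0.26 and 1 at 0.27.

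Among the α chains, Lama2, which forms the laminin of muscle, pericytes and astrocyte endfeet, was at -1.68, -1.0 and -1.60 in control and at -0.79, -0.47 and -1.23 in mPGC-1α samples. Control array 2 overlapped with the mPGC-1α arrays, and the fitted difference came to 0.60 (SE 0.29, unadjusted p = 0.067), but a second Lama2 probe gave -0.09. Lama4, an α chain of endothelial basement membrane, was at -2.82, -1.98 and -2.94 against -2.21, -1.82 and -2.30, a difference of 0.47 (SE 0.32). Again control array 2 was the control array that overlapped. Lama5, the other endothelial α chain, was at -3.02, -2.40 and -2.59 in control and -3.03, -2.74 and -3.09 in mPGC-1α samples, with a difference of -0.29 (SE 0.28) and overlapping groups. Lama1, the chain of early embryonic, pial and meningeal basement membrane, was dim, at -5.27, -4.37 and -5.71 against -4.74, -4.90 and -5.07, and its difference of 0.22 (SE 0.40) was smaller than its error. Lamc1, the γ chain of most laminins, was at -0.005, 0.70 and -0.21 in control and at 0.67, 0.95 and 0.34 in mPGC-1α samples, a difference of 0.49 (SE 0.28, unadjusted p = 0.114), while a second probe gave -0.20. Lama3 and Lamc3 were too dim to test.

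**Figure D3:**
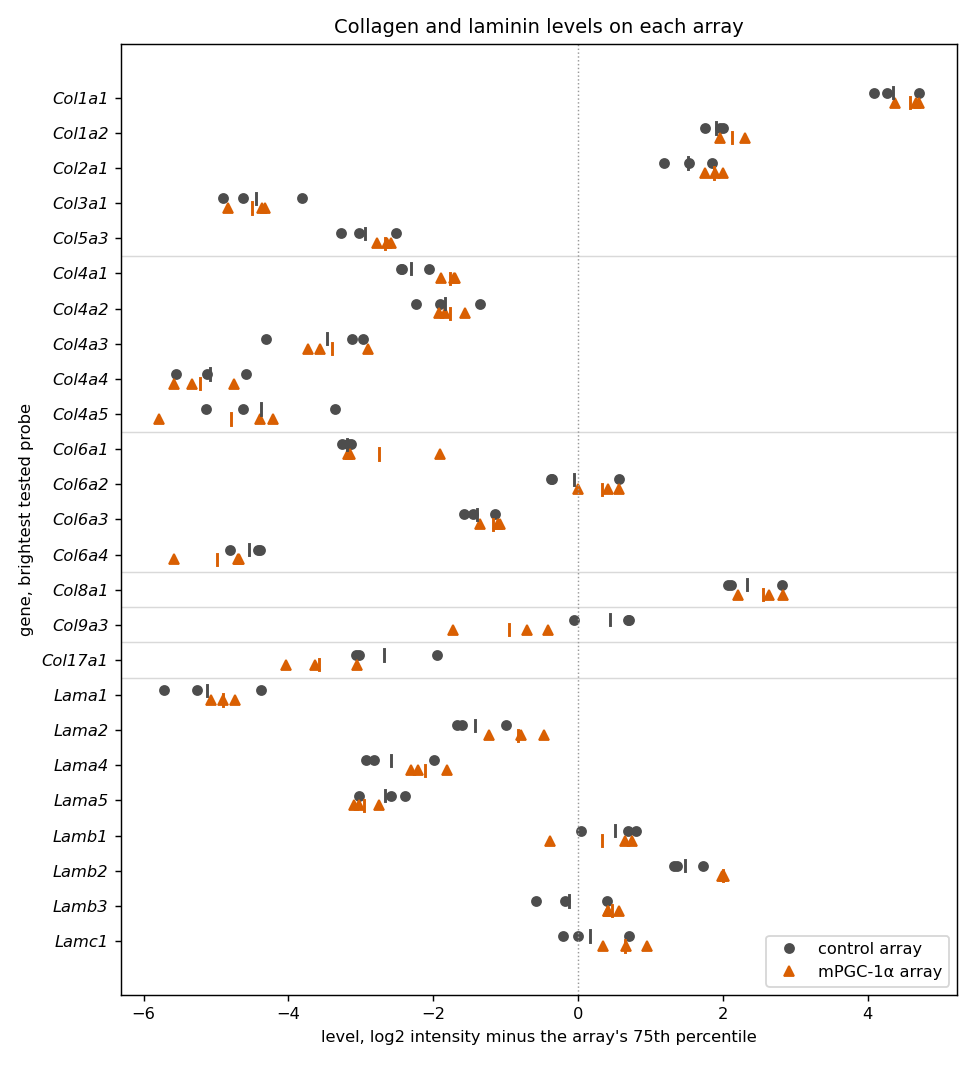
Level of the 25 members named by the selection rule, as log2 intensity minus the 75th percentile of the array, with each control array as a grey circle, each mPGC-1α array as an orange triangle and group means as short bars. The groups overlap for all but Col4a1, Col9a3, Lamb2 and Lamb3; levels are comparable within a row only.

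Type IV collagen, the partner network of laminin in basement membranes, had 3 tested chains with a higher and 2 with a lower mean in mPGC-1α samples, none at an unadjusted p below 0.05. Col4a1 was at -2.45, -2.06 and -2.43 in control and -1.71, -1.70 and -1.90 in mPGC-1α samples. Every mPGC-1α array lay above every control array and the difference was alike on both slides (0.55 and 0.53), yet the fitted value of 0.54 (SE 0.25) had an unadjusted p of 0.054 and an adjusted p of 0.706. Its trimer partner Col4a2, whose promoter window shares bases with that of Col4a1, was at -2.23, -1.36 and -1.91 in control and -1.56, -1.84 and -1.92 in mPGC-1α samples. Those groups overlapped throughout, with a difference of 0.06 (SE 0.29). The log2 ratio of Col4a1 to Col4a2, taken within each array, was 0.48 higher in mPGC-1α samples without overlap. Its exact permutation p was 0.1, the smallest that 3 against 3 arrays can give, and 0.26 after adjustment over the 13 chain pairs compared. How often ratios of other gene pairs separate the groups was not computed.

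The chains of the specialized type IV networks of kidney, eye and ear overlapped between the groups. Col4a3 was at -4.31, -3.13 and -2.97 in control and -3.57, -3.73 and -2.89 in mPGC-1α samples, a difference of 0.07 (SE 0.41) that was -0.02 after normexp and quantile normalization. Col4a4 was at -5.13, -5.55 and -4.58 against -4.75, -5.58 and -5.32, a difference of -0.13 (SE 0.39). Col4a5 was at -5.14, -4.63 and -3.35 against -5.78, -4.40 and -4.21, a difference of -0.42 (SE 0.56), the largest error of any tested member. All 3 differences changed sign when single arrays were left out. Col4a6 was too dim to test.

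The lowest value relative to control was that of Col9a3, which encodes the α3 chain of type IX collagen. It was at 0.69, -0.06 and 0.71 in control (0.45 ± 0.44, SD, n = 3) and at -1.73, -0.42 and -0.71 in mPGC-1α samples (-0.95 ± 0.69, SD, n = 3). Every mPGC-1α array lay below every control array; control array 2 was the lowest control array and mPGC-1α array 1 the lowest of all. The difference was -1.40 (SE 0.36), 2.64-fold lower, with an unadjusted p of 0.004 and an adjusted p of 0.669, and it was -1.39 on slide 1 and -1.42 on slide 2. Among genes with 6 values, 0.914% were at least 2-fold lower without overlap. A second Col9a3 probe gave -0.95 (unadjusted p = 0.040). Blocked on the replicate number, the adjusted p was 0.118, and without control array 2 the difference was -1.65 with an adjusted p of 0.042.

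The other chains of type IX collagen, which join Col9a3 in a trimer, overlapped between the groups. Col9a1 was at -3.65, -2.99 and -3.54 in control and -3.29, -3.22 and -3.51 in mPGC-1α samples, a difference of 0.05 (SE 0.29). Col9a2 was at -0.996, -0.08 and -0.74 against -0.16, -0.22 and -0.52, a difference of 0.31 (SE 0.28). For both chains control array 2 was the highest of all arrays. Within arrays, the log2 ratio of Col9a2 to Col9a3 was 1.71 higher and that of Col9a1 to Col9a3 was 1.45 higher in mPGC-1α samples, and the Col9a1 to Col9a2 ratio was lower, by -0.26. None of these 3 ratios overlapped between the groups. Each had an exact permutation p of 0.1 (0.26 after adjustment), the smallest that 3 against 3 arrays can give. The 2 ratios to Col9a3 contain the Col9a3 difference already given and are no separate result. How often ratios of other gene pairs separate the groups was not computed.

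Col17a1, a transmembrane collagen of hemidesmosomes, was at -3.06, -1.95 and -3.03 in control and -4.04, -3.05 and -3.63 in mPGC-1α samples. The groups overlapped, mPGC-1α array 2 lying just above control array 1, and control array 2 was the highest array. The difference was -0.89 (SE 0.39, unadjusted p = 0.049, adjusted p = 0.698). It was -0.53 without control array 2, where it no longer passed the unadjusted threshold, and -0.59 with normexp. Col8a2, which with Col8a1 forms the short-chain network of type VIII collagen, was chosen for description after its values were seen. It was at -0.06, 0.46 and 0.51 in control and -1.04, 0.16 and -0.24 in mPGC-1α samples, a difference of -0.68 (SE 0.32, unadjusted p = 0.065). Col8a1 was at 2.06, 2.81 and 2.12 against 2.63, 2.83 and 2.21, a difference of 0.23 (SE 0.26) with overlapping groups. The Col8a1 to Col8a2 ratio was 0.90 higher in mPGC-1α samples without overlap (exact permutation p = 0.1, adjusted 0.26). That ratio contains the Col8a2 difference for which the gene was chosen, and each of the genes overlapped between the groups by itself.

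Markers of choroid plexus epithelium also had lower means. All 6 tested markers of 8 had a lower mean in mPGC-1α samples, with a median of -0.65, where 38.3% of all genes had a lower mean. The other two lacked values on several arrays: Ttr, the thyroxine carrier of choroid plexus, was at 5.34 on control array 1 and at 5.5, 5.80 and 5.31 on the mPGC-1α arrays, and Clic6 was at 2.77, 3.67 and 3.33 in control and at 2.21 on mPGC-1α array 1. Among them Kcne2, a potassium channel subunit, passed an unadjusted p below 0.05, with a difference of -0.87 (SE 0.37, adjusted p = 0.692). The summed linear level of 5 markers, in units of the array's 75th percentile, ran from 12.8 to 21.4 on control and from 8.75 to 17.1 on mPGC-1α arrays, lowest on mPGC-1α array 1, where Col9a3, Col8a2 and Col17a1 were also lowest. The summed endothelial, fibroblast and macrophage markers were also lowest on mPGC-1α array 1, at 10.3, 0.752 and 4.92. All 8 choroid plexus markers were well above background on every array on which they were measured. Their part in the collagen values was not tested.

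**Figure D4:**
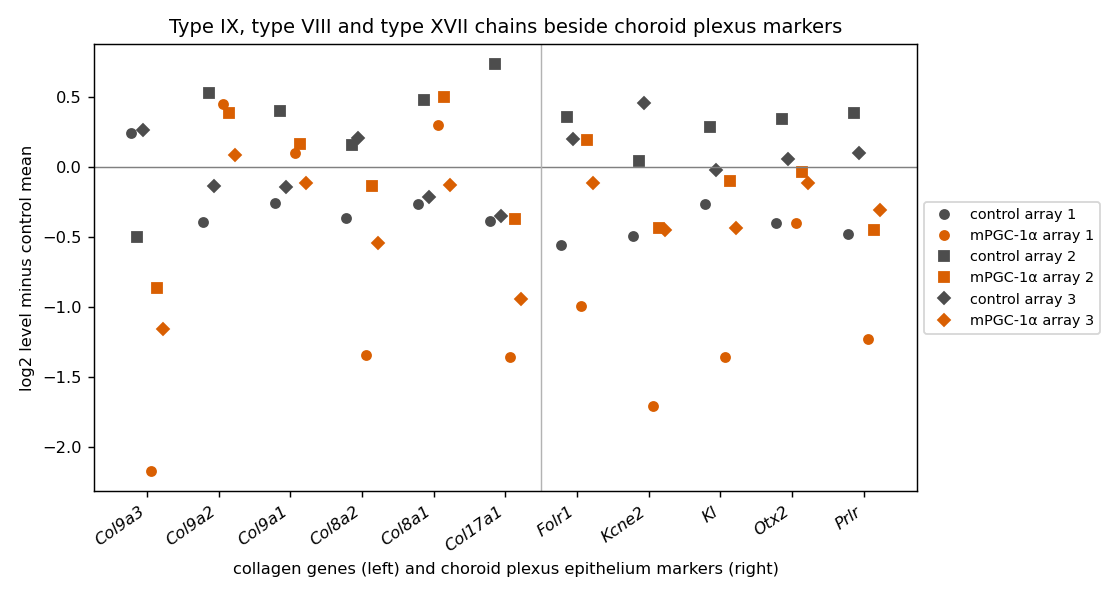
Log2 level minus the control mean on each array for chains of types IX, VIII and XVII collagen (left) and for choroid plexus markers with 6 values (right), with control arrays in grey and mPGC-1α arrays in orange. Array 1 of mPGC-1α (orange circles) lies lowest for Col9a3, Col8a2, Col17a1 and all 5 markers, but not for Col9a1, Col9a2 or Col8a1.

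Fibrillar collagens, the fiber-forming chains of connective tissue, had 8 of 9 tested chains with a higher mean in mPGC-1α samples, where 61.7% of all genes did (median difference 0.23, against 0.09 over all genes), none at an unadjusted p below 0.05. Col1a1, the α1 chain of type I collagen, was at 4.09, 4.71 and 4.27 in control and 4.67, 4.71 and 4.37 in mPGC-1α samples. Control array 2 matched the mPGC-1α arrays, and the fitted difference came to 0.23 (SE 0.21), with 0.32 and 0.48 by 2 further probes, the latter lacking a value on control array 2. With quantile normalization, normexp and the series matrix it was 0.076, 0.087 and 0.080. Its trimer partner Col1a2 was at 1.76, 2.00 and 1.96 in control and at 1.96 and 2.30 on the measured mPGC-1α arrays, a difference of 0.22 (SE 0.22). Col2a1, the cartilage fibrillar collagen, was at 1.19, 1.85 and 1.53 against 1.75, 2.00 and 1.89, a difference of 0.36 (SE 0.22). Col3a1, the type III chain of vessel walls and meninges, was at -4.63, -3.82 and -4.90 against -4.37, -4.32 and -4.83, a difference of -0.05 (SE 0.37) that was 0.04 under the scaling without outlier-marked spots. Col5a3, a type V chain, was at -3.27, -2.52 and -3.03 against -2.58, -2.78 and -2.63, a difference of 0.28 (SE 0.29). In each of these genes the groups overlapped, and control array 2 was the highest control array. Col5a1 and Col5a2 were too dim to test.

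Type VI collagen, the beaded filament that anchors basement membranes to nearby fibers, had 3 of 4 tested chains with a higher mean, and again none passed. Col6a1 was at -3.13, -3.18 and -3.26 in control and -1.91, -3.18 and -3.16 in mPGC-1α samples. The mPGC-1α arrays 2 and 3 lay among the control arrays, and the difference of 0.44 (SE 0.37) was 0.02 without mPGC-1α array 1. Col6a2 was at -0.36, 0.56 and -0.37 against 0.41, 0.56 and 0.00045, a difference of 0.38 (SE 0.30). Col6a3 was at -1.57, -1.15 and -1.46 against -1.07, -1.10 and -1.36, a difference of 0.22 (SE 0.24). By these probes control array 2 lay among the mPGC-1α arrays in both genes. A second Col6a3 probe gave a difference of 0.73 (SE 0.49), and there control array 2 was the lowest of all arrays, at -3.30. Col6a4 was at -4.39, -4.42 and -4.80 against -4.68, -4.69 and -5.59, a difference of -0.45 (SE 0.36) with overlapping groups. Ratios between Col6a1, Col6a2 and Col6a3 overlapped between the groups in all 3 pairs.

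The 19 tested members not named by the selection rule, Col8a2 among them, had differences from -0.68 to 0.54, with 13 higher and 6 lower, and the lowest unadjusted p was 0.065. These include the fibril-associated Col12a1, Col14a1, Col16a1, Col20a1 and Col22a1, the multiplexins Col15a1 and Col18a1, from whose tail endostatin is cut (-0.09 and -0.06), and Col7a1, the anchoring fibril of skin (0.26). The 11 untested members, among them Col10a1, Col19a1, Col28a1, Col4a6, Col6a5 and Col6a6, were well above background on 0 to 4 of the 6 arrays. Among 17 genes with several tested probes, the probes of 6 disagreed in sign: Col22a1, Col23a1, Col26a1, Lama2, Lamb1 and Lamc1.

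Markers of the cells that usually make these proteins were examined beside them. Over all genes, 61.7% had a higher mean in mPGC-1α samples and 38.3% a lower one. In limma, 2.97% of all genes were higher and 2.97% lower at an unadjusted p below 0.05. Of 8 tested endothelial markers 6 had a higher and 2 a lower mean in mPGC-1α samples. Pecam1 had the lowest difference of them, at -1.24. The transporter Slco1a4 was lower by -1.19 (unadjusted p = 0.006), the 1 endothelial marker that was lower at an unadjusted p below 0.05. The summed level of 9 endothelial markers ran from 13.8 to 17.9 on control and from 10.3 to 22.6 on mPGC-1α arrays, with the receptor Tek well above background on none. Of 9 tested pericyte and smooth muscle markers 7 had a higher mean, Pdgfrb, the pericyte growth factor receptor, by 0.63 without overlap (unadjusted p = 0.039, adjusted p = 0.686). Their sum ran from 11.9 to 19.4 on control and from 14.7 to 17.5 on mPGC-1α arrays, highest on control array 2, and Rgs5 was well above background on none. Fibroblast markers had 3 higher and 5 lower means, Ogn, a matrix proteoglycan, by -1.17 (unadjusted p = 0.010, adjusted p = 0.669), and sums from 0.867 to 1.77 and from 0.752 to 1.80. Astrocyte markers had a higher mean in 6 of 7, neuron markers in 8 of 8 and oligodendrocyte markers in 8 of 8 tested genes, and 2 of these sums did not overlap. The oligodendrocyte sum ran from 3.29 to 9.19 on control and from 10.3 to 16.4 on mPGC-1α arrays. The astrocyte sum ran from 6.99 to 10.4 and from 11.0 to 28.4. It was highest on mPGC-1α array 2, where the median laminin was also highest. The endothelial, fibroblast and microglia sums were highest on that array too, at 22.6, 1.80 and 118. At an unadjusted p below 0.05, 2 astrocyte genes (Gjb6 and Aldoc), 2 oligodendrocyte genes (Olig1 among them) and 5 neuron genes (Tubb3, Gad2, Map2, Gad1 and Rbfox3) were higher, by 0.93 to 1.40. Macrophage markers had a lower mean in 7 of 8, none at an unadjusted p below 0.05. None of these genes passed an adjusted p below 0.05 in limma, and the part of these cells in the laminin and collagen values was not tested.

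Other genes of matrix assembly were followed by lists. None passed an adjusted p below 0.05 in limma. Beside the counts below, 61.7% of all genes had a higher mean, with a median difference of 0.09. Of all genes, 2.97% were higher and 2.97% lower at an unadjusted p below 0.05. Of the basement membrane partners, 16 of 17 were tested, 12 with a higher mean (median 0.32), and at an unadjusted p below 0.05, 2 were higher and 1 was lower. Sparcl1, a matrix glycoprotein also made in quantity by astrocytes, was higher by 1.20 (SE 0.36) and Smoc2 by 0.78 (SE 0.34), both without overlap. Ntn4, a netrin that binds laminin γ chains, differed by -1.20 (SE 0.40), also without overlap, but was well above background on only 2 mPGC-1α arrays and so passed the brightness filter through the control group. Among 17 of 19 tested receptors, 12 had a higher mean (median 0.07), and Itgb4, the laminin-binding integrin β4, passed the unadjusted threshold at 0.89 (SE 0.33).

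Collagen biosynthesis and crosslinking enzymes showed no common direction, with 13 higher and 14 lower of 27 tested genes of 29 (median -0.06). Again, 61.7% of all genes had a higher mean, and 2.97% were higher and 2.97% lower at an unadjusted p below 0.05. The 3 that passed an unadjusted p below 0.05 were all lower: P3h2, a prolyl hydroxylase of basement membrane collagen, by -1.41 (SE 0.50), Pcolce2, an enhancer of procollagen processing, by -0.69 (SE 0.29), and Loxl3, a lysyl oxidase, by -0.62 (SE 0.26). Of 21 tested matrix proteases and inhibitors of 23, 11 had a higher and 10 a lower mean (median 0.03), 2 being higher and 3 lower at an unadjusted p below 0.05. Mmp12, the macrophage elastase, had a mean of -0.40 ± 0.89 (SD, n = 3) in control and -3.88 ± 0.32 (SD, n = 3) in mPGC-1α samples, a difference of -3.48 (SE 0.42) without overlap but with an adjusted p of 0.573. The collagenase Mmp13 differed by -2.15 (SE 0.57) and the membrane-type protease Mmp15 by -0.97 (SE 0.33), both well above background on only 2 mPGC-1α arrays. The aggrecanase Adamts4 was higher by 0.91 (SE 0.35).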

How the data were processed

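Each deposited scanner file holds a linear intensity for every spot, written by Feature Extraction 11.5.1.1: a processed signal that is background-subtracted and detrended within an array, median spot and local background signals, and flags. The series matrix deposited by the authors holds log2 values normalized in GeneSpring for 46731 of 56605 probes, and was used as an alternative (r of at least 0.999 with the same array's scanner values, column medians about 7.78). The labels name both Cy3 and Cy5, and the 1 green channel present was used. The methods name a Mann-Whitney U test for comparisons of 2 groups without naming the arrays; with 3 against 3 samples its smallest exact p is 0.1, so it was not used here.

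Samples were grouped by their labels. Log2 processed intensity minus the array's 75th percentile over 59305 non-control spots was taken (R 4.3.3; data.table, version 1.17.8). Outlier-marked spots were then left out and spots of a probe averaged. A probe was tested if well above background on every unmarked array of a group, with at least 2 such arrays and 2 values in each group. Probes were named by unversioned accession through a RefSeq gene list (33767 of 56605 matched, 59.7%), the others entered the fit unnamed, and 0 columns lacked a sample. Groups were compared with limma 3.58.1 (lmFit, eBayes with an intensity trend, two-sided, Benjamini-Hochberg over all 40745 tested probes), tested on simulated data. Chain ratios were compared by two-sided exact permutation over samples. A gene stands for its brightest tested probe.

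Members given on every array were the type I, III, V, IV and VI collagens and laminins that were tested, any other with an unadjusted p below 0.05 or at least a 2-fold difference without overlap, and those among the 5 highest levels. Other list genes were named at an unadjusted p below 0.05 or at least 2-fold without overlap, at most 5 a list. A few genes that these rules name are not reported here. Members, lists and markers were chosen with earlier results of these data known. Same-numbered arrays of the groups deviated together (r = 0.247, 0.224 and 0.171 for numbers 1, 2 and 3, against -0.337 to 0.035 for other pairs), so the block on replicate number was read as a paired fit, although the meaning of the numbers is not given in the labels. The main fit and the permutations were unpaired. Slide 1 held replicates 1 and 2 and slide 2 replicate 3 of both groups.

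Alternatives were quantile normalization, normexp with an offset of 50 on the median signals followed by quantile normalization, the series matrix, other filters on dim probes, slide or replicate as a block, no intensity trend, outlier-marked spots kept, the mean of all tested probes, and each array left out in turn. A percentile taken over probe means without outlier-marked spots was added after seeing the data.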

Additional observations from a re-analysis of the deposited data

How the results depend on the processing

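The count of members with an adjusted p below 0.05 was 0 under every setting tried except without control array 2, where it was 1 (Col9a3), so it ran from 0 to 1 when single arrays were left out. The count at an unadjusted p below 0.05 with a higher mean, 1 here, was 2 with quantile normalization, 3 with the mean of all probes, 2 with the percentile without outlier-marked spots (a setting chosen after seeing the data), and 0 with no filter on dim probes, with probes well above background on all 6 arrays, with slide as a block and with outlier-marked spots kept. It ran from 0 to 12 when single arrays were left out, 12 being without control array 2. The count with a lower mean, 2 here, was 1 with quantile normalization, normexp, the series matrix, slide as a block and the added percentile, and ran from 1 to 3 when single arrays were left out. With the replicate number as a block, which takes the numbers to pair the samples, 3 members were higher and 3 lower at an unadjusted p below 0.05 (4.55% and 5.39% of all genes), 0 passed the adjusted threshold, as without the block. The collagen median stayed between 0.02 and 0.34 and the laminin median between 0.29 and 0.71 when single arrays were left out, and the laminin median was 0.23 with the mean of all probes. Col3a1 was 0.040 with the added percentile and ran from -0.28 to 0.26 when single arrays were left out, and Col4a3 was -0.022 with normexp and ran from -0.35 to 0.32. The other members named by the selection rule that changed sign when single arrays were left out were Col4a2 (-0.14 to 0.30), Col4a4 (-0.37 to 0.12), Col4a5 (-0.81 to 0.091), Lama1 (-0.083 to 0.59) and Lamb1 (-0.41 to 0.19). Among the remaining members, Col14a1, Col18a1 and Col26a1 went from -0.067, -0.058 and -0.051 to 0.053, 0.00015 and 0.046 without control array 2. Values of the remaining members without other arrays are not given here. The cause of these changes was not tested. Fits that left out an array pooled the spread over the remaining 5, and dim members on 3 arrays a group allow no finer statement.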
